A study of Mus musculus with 9 samples.

Results

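The dermis of mouse ears treated with imiquimod and with XYF, the Chinese herbal decoction Xiao-Yin-Fang, was set against the dermis of control ears. The samples were chosen by their labels: the 3 libraries of the IMQ+XYF group and the 3 libraries of the VAS+H2O group, 6 of the 9 libraries of the series. All mice were C57BL/6, 8 weeks old and labelled as wide type. VAS+H2O mice had vaseline on the ears for 5 days and ddH2O by gavage for 10 days. IMQ+XYF mice had imiquimod cream for 5 days and XYF (23.3 mg/g) by gavage for 10 days. The remaining 3 libraries, IMQ+H2O, came from mice with imiquimod and ddH2O, and their values stand beside those of the comparison. The groups compared therefore differ in both the cream and the decoction, and a difference between them cannot be assigned to either agent. No group received XYF without imiquimod. By the study's methods, the ear sheets for RNA came from a pair of mice. The study's figure legends for the sequencing give n = 3 for each group. It was not clear whether the pair of mice stands for each library or each group, or whether animals were pooled. The p-values may therefore measure only the spread between these libraries.

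Imiquimod is an agonist of Toll-like receptors, and its repeated application to mouse skin causes an inflammation that resembles psoriasis. In such skin, IL-17 acts on keratinocytes, which release chemokines and antimicrobial proteins, proliferate and switch to the stress keratins. Neutrophils follow the chemokines that bind their receptor CXCR2. The question of the comparison is which genes remained apart from healthy skin in ears that received imiquimod while XYF was given.

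The label of the tissue is dermis, and the fibroblast genes Col1a1, Col3a1 and Dcn took many reads in every library (Dcn 6137, 6282 and 6142 CPM in VAS+H2O and 4821, 5359 and 5288 CPM in IMQ+XYF; CPM, counts scaled to a common library size by the TMM method of edgeR, is not divided by gene length). The libraries also held epidermal RNA: Krt5, the keratin of basal keratinocytes, stood at 742, 1378 and 976 CPM in VAS+H2O and at 2846, 732 and 1161 CPM in IMQ+XYF. RNA of cartilage and skeletal muscle, which lie within the ear, was present as well, although the cartilage gene Matn1 had no count in any library. The neutrophil gene Ly6g had no count in VAS+H2O and in IMQ+XYF replicate 2, and 0.174 and 0.471 CPM in IMQ+XYF replicates 1 and 3. Total counts of the 6 libraries ran from 37229568 to 79836881 and the mitochondrial share of counts lay between 8.21% and 14.3% over the 9 libraries. The libraries of a group differed by far more than counting error, and IMQ+XYF replicate 1 stood apart from its group in the tissues it held. Its summed skeletal muscle genes came to 661 CPM against 3526 and 2019 CPM in replicates 2 and 3, and its baseline keratins to 28694 CPM against 7824 and 9470.4 CPM. Replicate 2 of IMQ+XYF stood apart as well. Its summed cartilage genes came to 6981 CPM against 2778 and 3486 CPM in replicates 1 and 3, and its stress epidermis genes to 1276 CPM against 2662 and 4392 CPM.

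Of 22430 genes tested with edgeR, 270 (1.2%) were called between IMQ+XYF and VAS+H2O, at a Benjamini-Hochberg adjusted p of 0.05 or lower and an absolute log2 fold change of 1 or higher. IMQ+XYF was higher for 156 genes (0.695%) and lower for 114 (0.508%), and the groups did not overlap for any of them. Over all genes tested, IMQ+XYF lay wholly above VAS+H2O for 11.7% and wholly below for 10.3%. The median log2 fold change over all genes was -0.02. Of the 22430 genes, 4112 had an unadjusted p under 0.05 in this comparison, 2148 of them higher and 1964 lower. The counts at this p given for the lists below have to be read beside that share. The same fit called 223 genes (0.994%) between IMQ+H2O and VAS+H2O, a comparison that uses the same control libraries. It called 2 genes (0.00892%) between IMQ+XYF and IMQ+H2O, Sike1 and Prr33, and 2633 genes had an unadjusted p under 0.05 there. DESeq2 called 701 genes between IMQ+XYF and VAS+H2O. The number called by edgeR was 115, 12 and 24 without replicates 1, 2 and 3 of VAS+H2O in turn, 144, 93 and 138 without those of IMQ+H2O, and 25, 592 and 38 without those of IMQ+XYF.

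**Figure D1:**
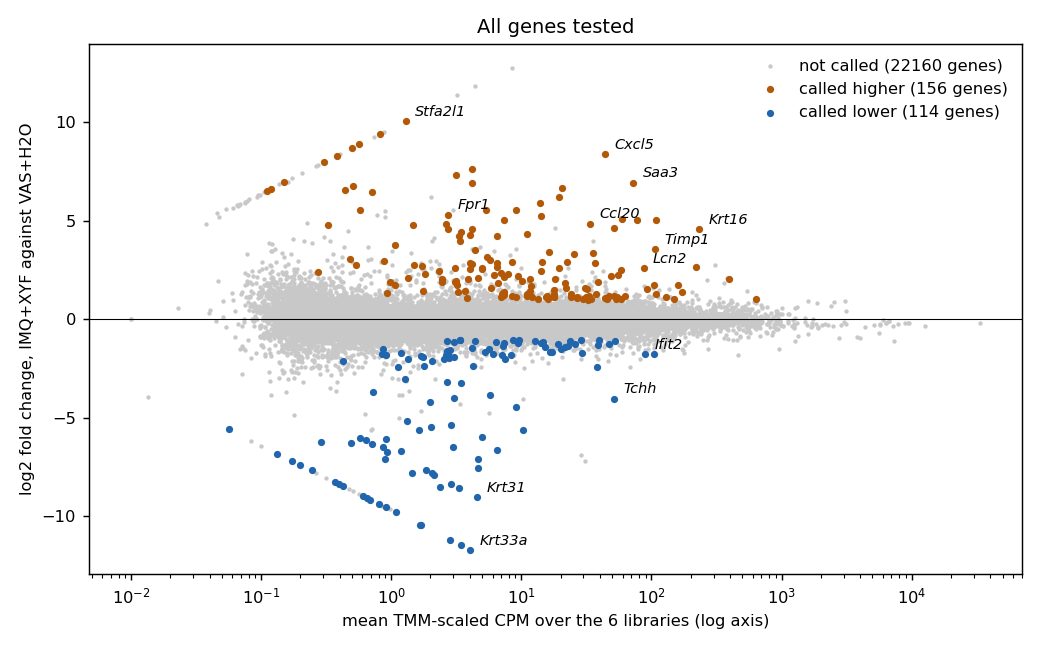
Each point is one of the 22430 genes tested, with the mean CPM over the 6 libraries on a log x axis (means under 0.01 drawn at 0.01) and the fitted log2 fold change of IMQ+XYF against VAS+H2O on the y axis. Called genes are orange (156 higher) and blue (114 lower), and the straight edges at the upper and lower left hold genes with no count in 1 of the groups, whose fitted fold change depends on the prior count.

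The genes were followed in 35 lists of 4 classes, inflammatory, epidermal, stromal and muscle. Here and below, a gene rose, fell or was called by the edgeR fit unless DESeq2 is named. Nearly all calls in the lists lay in the inflammatory and epidermal classes. Of 235 inflammatory genes tested, 34 were higher in IMQ+XYF and 4 lower. Of 189 epidermal genes, 12 were higher and 35 lower, and all 35 were hair keratins, keratin-associated proteins or related genes of the hair follicle. Among 231 stromal genes, 1 was higher and 1 lower. None of 112 muscle genes was called by edgeR, while DESeq2 called 2 sarcomere genes, 2 of calcium handling and 1 of energy metabolism lower. The lists thus held 87 of the 270 called genes. The keratin-associated proteins and several hair keratins could pass the filter on low counts only through VAS+H2O. Some stefin A and other genes could pass it only through the groups with imiquimod. The lists were also chosen with earlier results of these data known, so the counts by class describe these members and support nothing further.

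**Figure D2:**
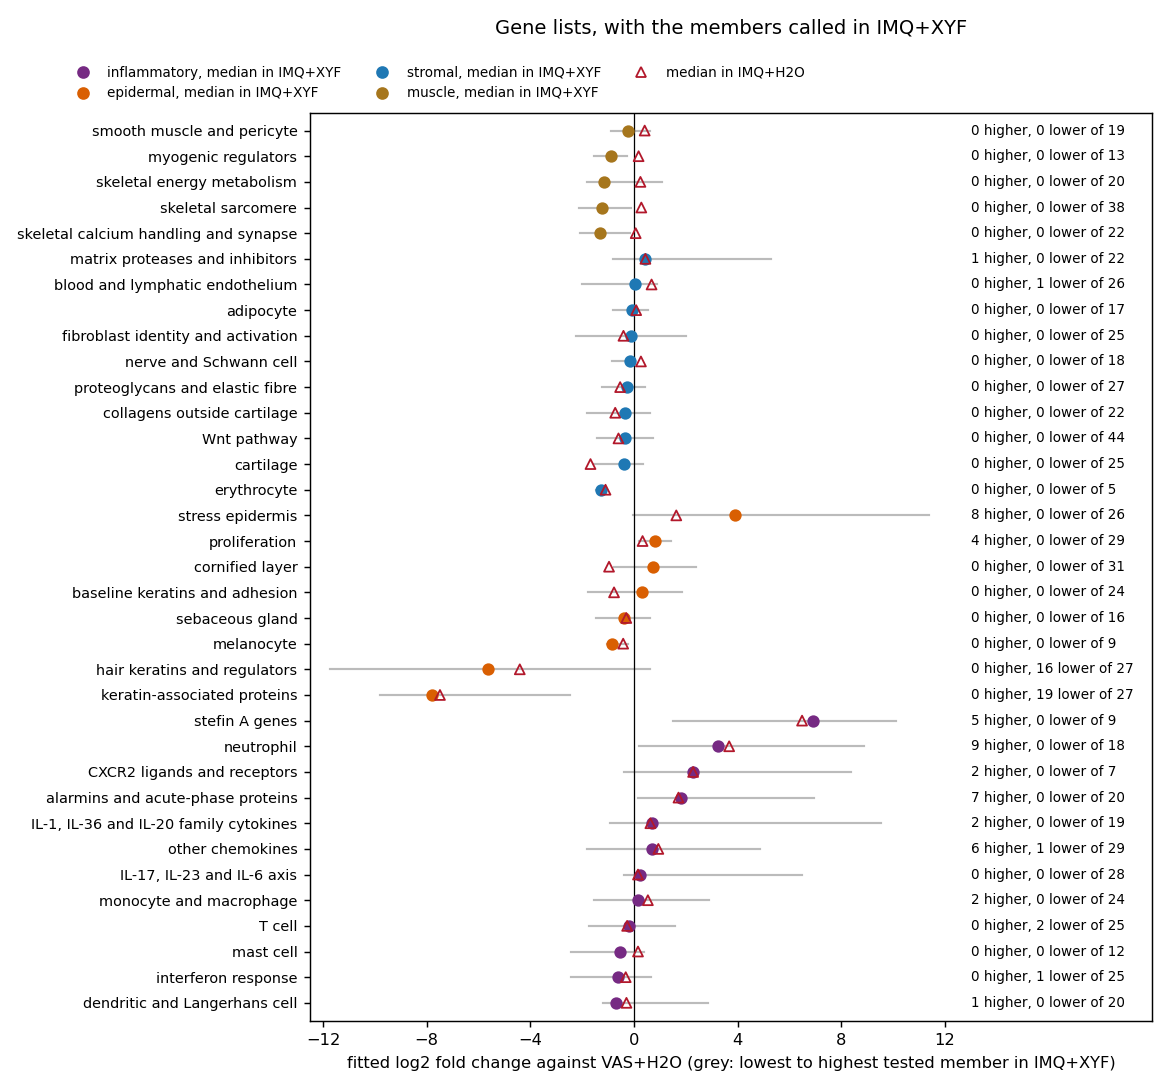
For each of the 35 lists, the filled point is the median fitted log2 fold change of its tested genes in IMQ+XYF against VAS+H2O, the grey line runs from the lowest to the highest gene, the open triangle is the median in IMQ+H2O against the same controls, and the text gives the genes called in IMQ+XYF. Stefin, neutrophil and stress epidermis genes lie at the right, hair keratins and keratin-associated proteins at the left, and the skeletal muscle lists have medians from -1.29 to -0.88 without a call.

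Among the genes by which neutrophils are attracted through CXCR2, the ligands Cxcl5 and Cxcl3 rose. Cxcl5 (chr5:90759360-90761624 in GRCm38), a CXCR2 ligand of epithelia and stroma, was at 0.146, 0.167 and 0.402 CPM in VAS+H2O and at 62, 29.5 and 173 CPM in IMQ+XYF (log2 fold change 8.38 ± 1.09, adjusted p = 0.0173). Here and below the error is an approximate SE, the absolute log2 fold change over the square root of the F statistic. The fit behind it takes its spread from all 9 libraries. The level of Cxcl5 in IMQ+H2O was 22.7, 152 and 101 CPM, so that the ranges with and without XYF overlapped. Cxcl3, another ligand of the receptor, rose from 0.0728, 0.0834 and 0.442 CPM to 8.16, 4.37 and 19.2 CPM (log2 fold change 5.53 ± 0.88, adjusted p = 0.0292), beside 5.68, 13.5 and 21.5 CPM in IMQ+H2O. These were the called members, 2 of 7 tested, and the median log2 fold change of the list was 2.26 (2.28 in IMQ+H2O). The receptor gene Cxcr2 was at 1.65, 2.72 and 0.375 CPM and 23.4, 7.22 and 13.6 CPM, without overlap, and missed the threshold (adjusted p = 0.063). Cxcl1, the member with the most reads, overlapped between the groups, with 51.6, 175 and 139.7 CPM in VAS+H2O and 233, 116 and 271 CPM in IMQ+XYF. Cxcl2 overlapped too, at 5.68, 30.3 and 12.4 CPM and 48.3, 22.7 and 84.9 CPM (adjusted p = 0.243). In bulk RNA, a change in the number of cells of a type and a change in RNA per cell cannot be told apart. The count of 2 called genes rested on single libraries: without replicates 1, 2 and 3 of VAS+H2O in turn it was 0, 0 and 0, without those of IMQ+H2O 2, 1 and 2, and without those of IMQ+XYF 0, 3 and 1. A fit to the 6 libraries alone called 1.

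Of 29 other chemokines, 6 rose and 1 fell, with a median of 0.70 (0.94 in IMQ+H2O). Ccl20, the ligand of CCR6 that attracts IL-17-producing T cells, had the largest fitted change of the 6. Its level was 2.01, 3.72 and 1.21 CPM in VAS+H2O and 141, 25.7 and 30 CPM in IMQ+XYF (log2 fold change 4.85 ± 0.75, adjusted p = 0.0273). In IMQ+H2O it was 13.2, 11.5 and 12.5 CPM, so every IMQ+XYF library lay above every IMQ+H2O library, and the contrast between them had a log2 fold change of 2.41 with an unadjusted p of 0.00579, which was not called. Ccl17 and Ccl22, the ligands of CCR4 made by dendritic cells and macrophages, both rose. Ccl17 went from 1.5, 2.03 and 1.74 CPM to 7.44, 8.6 and 17.6 CPM (log2 fold change 2.67 ± 0.41, adjusted p = 0.0255). Ccl22 was nearly the same in the control libraries, 5.46, 5.5 and 5.48 CPM, and reached 26.8, 26.3 and 46.7 CPM (log2 fold change 2.60 ± 0.43, adjusted p = 0.0326). Ccl6 and Ccl12, which attract monocytes, had log2 fold changes of 2.24 (adjusted p = 0.0367) and 1.83 (adjusted p = 0.0132). Cxcl14, a chemokine of resting epithelia, rose from 62.3, 69.7 and 91.5 CPM to 251, 150.0 and 341 CPM (log2 fold change 1.73 ± 0.36, adjusted p = 0.0491). The member that fell was Ccl27a, which draws T cells to the skin and is made by keratinocytes, from 8.66, 12.6 and 9.98 CPM to 4.39, 4.03 and 3.98 CPM (log2 fold change -1.33 ± 0.27, adjusted p = 0.0477). Cxcl13, the chemokine of B cells, was 10.4, 2 and 0.389 CPM in VAS+H2O, where replicate 1 stood above the others, and 77.4, 63 and 59.7 CPM in IMQ+XYF (adjusted p = 0.0661). The monocyte chemokines Ccl2 and Ccl7 overlapped between the groups. Ccl27a was called in 1 of the 9 fits that left out a library, that without IMQ+H2O replicate 2, and in the fit to the 6 libraries alone no chemokine was lower. The number of chemokines that rose depended on the libraries: without replicates 1, 2 and 3 of VAS+H2O in turn it was 2, 0 and 1, without those of IMQ+H2O 5, 3 and 4, and without those of IMQ+XYF 2, 8 and 1. Ccl27a has near-identical copies in the genome, and its reads may be divided among them.

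Antimicrobial and acute-phase proteins rose in 7 of 20 genes and fell in none, with a median of 1.82 (1.72 in IMQ+H2O). S100a8 and S100a9, the subunits of calprotectin, both rose. S100a8 stood at 1.16, 6 and 3.07 CPM in VAS+H2O and 102, 61.7 and 182 CPM in IMQ+XYF (log2 fold change 5.09 ± 0.76, adjusted p = 0.0239). S100a9 stood at 1.41, 7.89 and 4.47 and 139, 80.6 and 228 CPM (log2 fold change 5.03 ± 0.76, adjusted p = 0.0245). For both, IMQ+XYF replicate 2 was the lowest of its group and still lay above every control. Saa3, an acute-phase protein of macrophages and epithelia, had the largest fitted change of the 7, from 1.24, 1.75 and 0.67 CPM to 177, 75.8 and 179.6 CPM (log2 fold change 6.93 ± 0.96, adjusted p = 0.0208). In IMQ+H2O it was 64.5, 334 and 752 CPM, a wider spread than in IMQ+XYF. Lcn2, which binds bacterial siderophores, had even levels within groups, 20.5, 32.2 and 22.4 CPM in VAS+H2O, 147, 140.2 and 163 CPM in IMQ+XYF (log2 fold change 2.58 ± 0.22, adjusted p = 0.0107) and 188, 215 and 296 CPM in IMQ+H2O. All IMQ+XYF values of Lcn2 lay below all IMQ+H2O values, and that contrast (log2 fold change -0.63, unadjusted p = 0.0142) was not called. Slpi, an inhibitor of neutrophil elastase, was 4.15, 6.42 and 3.52 CPM in VAS+H2O, 48, 30.6 and 59.5 CPM in IMQ+XYF (log2 fold change 3.30 ± 0.33, adjusted p = 0.0117) and 18.5, 19.2 and 29.2 CPM in IMQ+H2O, so that here IMQ+XYF lay above IMQ+H2O. Hp, which binds haemoglobin, and Cfb, a factor of the alternative complement pathway, rose by 2.65 and 1.40 on the log2 scale (adjusted p = 0.0309 and 0.0411). C3, the central complement component, was 413, 525 and 459.9 CPM and 632, 471 and 486 CPM, with overlap. The count of calls varied with the libraries: without replicates 1, 2 and 3 of VAS+H2O in turn it was 3, 2 and 2, without those of IMQ+H2O 7, 5 and 5, and without those of IMQ+XYF 2, 10 and 2. DESeq2 called 11 and a fit to the 6 libraries alone 3.

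The promoter of Lcn2 is printed because Lcn2 was 1 of 8 genes called whichever of the 9 libraries was left out. The window is RefSeq sequence of GRCm38.p6 (chr2:32387690-32387989, minus strand), from 250 bases before the annotated start to 50 bases from it on, and the capitals mark a match of TTNNGCAA, the letters of a C/EBP-like site, read on the other strand at 216 bases before the start.
Lcn2: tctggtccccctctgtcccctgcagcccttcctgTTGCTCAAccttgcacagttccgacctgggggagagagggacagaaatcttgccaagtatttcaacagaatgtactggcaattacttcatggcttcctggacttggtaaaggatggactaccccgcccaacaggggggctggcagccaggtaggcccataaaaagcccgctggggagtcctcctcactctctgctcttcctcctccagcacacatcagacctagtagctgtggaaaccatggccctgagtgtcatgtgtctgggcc
These letters stood in the windows of 4 of the 5 called genes of the list that had a window (S100a9, Saa3, Lcn2 and Slpi) and of 12.2% of all 27025 genes with one. Both strands were searched, for 12 patterns in all, chosen with the calls known. A match is a description of letters and not a site.

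The stefin A genes, a cluster on chromosome 16 that encodes inhibitors of cysteine proteases in keratinocytes and myeloid cells, had the highest median of all lists. Of 9 tested, 5 rose, with a median of 6.92 (6.48 in IMQ+H2O) and of 5.05 where genes with no control count are set to their lower bound. Of the 9, 5 had no control count and were set to the bound. These could pass the filter on low counts only through the groups with imiquimod and could not come out lower. The median and its rank therefore describe these members and support nothing further. Stfa3 stood at 0.752, 0.417 and 0.161 CPM in VAS+H2O, 15, 6.89 and 20.6 CPM in IMQ+XYF (log2 fold change 5.05 ± 0.61, adjusted p = 0.0163) and 4.13, 4.17 and 6.01 CPM in IMQ+H2O. BC100530 stood at 1.09, 0.528 and 0.0402 CPM, 32, 11 and 71.1 CPM (log2 fold change 6.20 ± 1.01, adjusted p = 0.0309) and 5.58, 8.01 and 9.26 CPM. Thus the IMQ+XYF libraries lay above the IMQ+H2O libraries for both, with unadjusted p of 0.0127 and 0.0198 for that contrast, which was not called. Stfa1 had counts in VAS+H2O replicate 2 alone and 6.3, 2.38 and 16.2 CPM in IMQ+XYF (log2 fold change 6.92 ± 1.27, adjusted p = 0.04). Stfa2l1 and Gm5483 had no count in VAS+H2O. They were at least 39.3-fold and 24.8-fold higher in IMQ+XYF, against a floor of 3 counts per control library, with adjusted p of 0.0161 and 0.04. The genes of the cluster are close copies, and the use of reads that fit several of them is not given in the sources used here, so the share of each gene is uncertain. The number called moved with the libraries: without replicates 1, 2 and 3 of VAS+H2O in turn it was 2, 0 and 2, without those of IMQ+H2O 2, 2 and 3, and without those of IMQ+XYF 0, 6 and 2.

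Cytokines of the IL-1, IL-36 and IL-20 families rose in 2 of 19 genes, Il33 and Il19. Il33, an alarmin of epithelial and stromal nuclei, went from 12.1, 18.2 and 22.2 CPM to 78.2, 42 and 122 CPM (log2 fold change 2.21 ± 0.42, adjusted p = 0.0431), beside 59.6, 91 and 126 CPM in IMQ+H2O. Il19, an IL-20 family cytokine that acts on keratinocytes, was all but absent from the control, 0, 0.0834 and 0.0402 CPM, and reached 5.48, 5.57 and 13.7 CPM (log2 fold change 7.61 ± 0.80, adjusted p = 0.0132). Its level in IMQ+H2O was 4, 7.76 and 11.9 CPM, which spans the same range. Il1a, which keratinocytes store and release, was 0.17, 2.47 and 0.456 CPM and 12.7, 5.02 and 16.1 CPM without overlap (adjusted p = 0.0744). Il1b, the inflammasome product, overlapped, with 10.9, 76.4 and 32.1 CPM in VAS+H2O and 91.5, 49 and 125 CPM in IMQ+XYF (adjusted p = 0.418), and VAS+H2O replicate 2 was the highest control. Without replicates 1, 2 and 3 of VAS+H2O in turn, 1, 0 and 0 genes of these families were called, and without those of IMQ+XYF 1, 3 and 1. Leaving out an IMQ+H2O library gave 1 call in each case.

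None of the 28 tested genes of the IL-17, IL-23 and IL-6 axis was called by edgeR, and DESeq2 called 0 as well. Of these, 8 had an unadjusted p under 0.05, all with a fitted change above 0, and the list median was 0.25 (0.15 in IMQ+H2O). Il17a had no count in VAS+H2O and 0.224, 0.224 and 0.114 CPM in IMQ+XYF, at least 2.86-fold higher (adjusted p = 0.127), which amounts to 36 reads over the IMQ+XYF libraries. Il23a, the subunit particular to IL-23, was 0.097, 0.389 and 0.0536 CPM and 0.846, 0.427 and 0.666 CPM (adjusted p = 0.178). Il17f overlapped at 0.315, 0.917 and 0.603 CPM and 0.398, 0.976 and 0.779 CPM. At such levels a difference in these cytokine genes may not be detectable at this depth. Osmr, the receptor of oncostatin M, passed the adjusted p (0.0468) with groups of 85.7, 121 and 125 CPM and 181, 176 and 216 CPM but with a log2 fold change of 0.79 ± 0.16, under the limit of 1. Nfkbia, the inhibitor of NF-κB, was 365, 668 and 655 CPM and 630.5, 500.5 and 688 CPM, with overlap.

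Genes of neutrophils were higher in IMQ+XYF for 9 of 18 tested, and none was lower. The median was 3.23 (3.67 in IMQ+H2O), and the summed level of the list was 147, 174 and 91.6 CPM in VAS+H2O, 465, 253 and 498 CPM in IMQ+XYF and 249, 412 and 520.2 CPM in IMQ+H2O. Fpr1 (chr17:17876471-17883940), the receptor for bacterial formyl peptides, had the smallest adjusted p of all genes. It stood at 0.121, 0.139 and 0.134 CPM in VAS+H2O, 5.64, 5.02 and 5.34 CPM in IMQ+XYF (log2 fold change 5.32 ± 0.28, adjusted p = 0.000487) and 5.48, 7.23 and 9.75 CPM in IMQ+H2O, and VAS+H2O and IMQ+XYF each spanned a narrow range. Fpr2, its neighbour on chromosome 17, rose from 0.485, 0.472 and 0.268 CPM to 7.93, 4.64 and 6.32 CPM (log2 fold change 3.97 ± 0.37, adjusted p = 0.0107). Csf3r, the receptor of the granulocyte growth factor G-CSF, rose from 2.43, 4.22 and 3.54 CPM to 25.2, 14.6 and 36.9 CPM (log2 fold change 2.91 ± 0.47, adjusted p = 0.0299). Itgam, which encodes CD11b, rose from 4.68, 12.3 and 10.1 CPM to 80.3, 68.2 and 46.5 CPM (log2 fold change 2.85 ± 0.37, adjusted p = 0.0173). The amplifier of inflammatory signalling Trem1 and the lectin Clec4d rose by 4.58 and 2.16 on the log2 scale (adjusted p = 0.03 and 0.0453). Mrgpra2b had no count in the control and was at least 17.4-fold higher, and it could pass the filter only through the groups with imiquimod. Trem3, with 3 control reads, had a ratio of 55.6 (95% counting interval 18.8 to 272). Monocytes express several of these genes too, and the granule genes Mpo and Elane did not reach the level needed for a test. The list also holds Asprv1, Il1f9 and Ptgs2, which are not particular to neutrophils. Its summed level is therefore not a measure of neutrophil RNA alone. The number of calls changed as follows: without replicates 1, 2 and 3 of VAS+H2O in turn it was 3, 2 and 2, without those of IMQ+H2O 5, 3 and 7, and without those of IMQ+XYF 2, 10 and 3. DESeq2 called 14 and a fit to the 6 libraries alone 2.

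Of 24 genes of monocytes and macrophages 2 rose and none fell, with a median of 0.17 (0.53 in IMQ+H2O). Msr1, the scavenger receptor A, rose from 6.53, 8.95 and 5.84 CPM to 30.6, 26 and 30.4 CPM (log2 fold change 2.03 ± 0.20, adjusted p = 0.0107), and it too was called whichever library was left out. Fcgr4, an activating Fc receptor, rose from 3.71, 0.889 and 1.41 CPM to 19.4, 13.3 and 11.7 CPM (log2 fold change 2.89 ± 0.49, adjusted p = 0.0337). Lyz2, the lysozyme of these cells, was 279.9, 453 and 255 CPM and 383, 388 and 356 CPM, with overlap. Csf1r, the receptor that resident macrophages depend on, was 70.5, 131 and 85.6 CPM in VAS+H2O and 48, 40 and 61.2 CPM in IMQ+XYF, wholly below the control without a call (adjusted p = 0.126). Trem2 showed the same order, 5.34, 11.6 and 5.12 CPM and 1.78, 2.14 and 3.57 CPM (adjusted p = 0.0848). Without VAS+H2O replicate 2 or 3, an IMQ+H2O library, or IMQ+XYF replicate 1 or 3, 1 gene was called instead of 2. DESeq2 called 3 of the 24 higher and 1 lower.

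**Figure D3:**
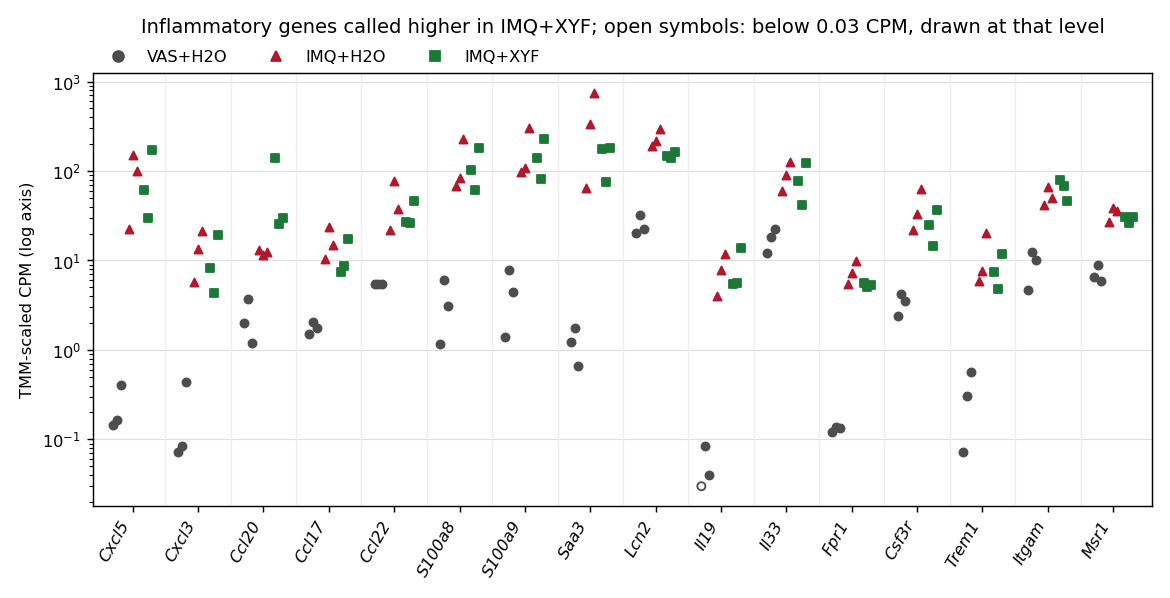
Level of 16 called inflammatory genes in each library, as TMM-scaled CPM on a log axis, with grey circles for VAS+H2O, red triangles for IMQ+H2O and green squares for IMQ+XYF (3 libraries each, replicates 1 to 3 from left to right). For every gene the green squares lie above the grey circles, and for Ccl20 they also lie above the red triangles, whereas for Lcn2 they lie below them.

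Of 20 genes of dendritic and Langerhans cells, Ccr7 alone was called. Ccr7, which guides mature dendritic cells to lymph nodes, rose from 0.873, 0.917 and 1.11 CPM to 8.59, 3.99 and 8.77 CPM (log2 fold change 2.87 ± 0.47, adjusted p = 0.0309), beside 3.38, 11.1 and 6.71 CPM in IMQ+H2O. Of the 20 genes, 16 had a fitted change below 0 and 4 above, with a median of -0.69 (-0.29 in IMQ+H2O), and 9 genes stood at an unadjusted p under 0.05 below the control. Cd74, the invariant chain of MHC class II, was 489, 733 and 615 CPM in VAS+H2O, 305, 207 and 361 CPM in IMQ+XYF and 363, 633 and 411 CPM in IMQ+H2O (adjusted p = 0.0801 against the control). H2-Aa, a class II chain, was 317, 427 and 334 CPM and 188, 111 and 214 CPM (adjusted p = 0.0974). No IMQ+XYF library reached a control library for either gene, and neither was called by edgeR. DESeq2 called 4 genes of the list lower. Ccr7 lost its call when any 1 VAS+H2O library, replicate 3 of IMQ+H2O, or replicate 1 or 3 of IMQ+XYF was left out.

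Among 25 T cell genes, Cd4 and Cd27 fell and none rose. Cd4, the coreceptor of helper T cells that some myeloid cells carry too, went from 7.62, 13.3 and 6.97 CPM to 2.24, 3.17 and 2.91 CPM (log2 fold change -1.74 ± 0.35, adjusted p = 0.0475), with 4.27, 7.06 and 3.24 CPM in IMQ+H2O. Cd27, a costimulatory receptor, went from 1.38, 1.33 and 1.14 CPM to 0.386, 0.549 and 0.406 CPM (log2 fold change -1.52 ± 0.26, adjusted p = 0.0358), with 0.689, 0.728 and 0.624 CPM in IMQ+H2O. The pan-T cell gene Cd3e overlapped, with 2.5, 2.81 and 1.53 CPM and 3.3, 2.44 and 1.38 CPM (log2 fold change 0.07 ± 0.34). Trdc, the constant part of the δ chain of γδ T cells, was 3.74, 6.84 and 3.48 CPM in VAS+H2O, 12.1, 3.48 and 9.37 CPM in IMQ+XYF and 2.72, 19 and 26.7 CPM in IMQ+H2O (adjusted p = 0.612), a spread within groups as wide as the distance between them. The median of the T cell list, -0.20, turned to 0.10 without IMQ+XYF replicate 2 and was 0.00 without VAS+H2O replicate 2. Neither Cd4 nor Cd27 was called when any 1 library other than IMQ+XYF replicate 2 was left out. None of 12 mast cell genes was called by edgeR, 4 had an unadjusted p under 0.05 below the control, and DESeq2 called 1. Ms4a2, the β subunit of the IgE receptor, was 3.15, 10.8 and 10.7 CPM in VAS+H2O, 1.1, 1.65 and 1.9 CPM in IMQ+XYF and 4.2, 17.2 and 6.24 CPM in IMQ+H2O (adjusted p = 0.0848 against the control).

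Of 25 genes of the interferon response, Ifit2, which binds viral RNA, fell and none rose, and the median was -0.63 (-0.32 in IMQ+H2O). Ifit2 stood at 72.3, 122 and 221 CPM in VAS+H2O, 36.9, 39.2 and 45.6 CPM in IMQ+XYF (log2 fold change -1.77 ± 0.34, adjusted p = 0.0441) and 63.7, 55.5 and 49.7 CPM in IMQ+H2O. Rsad2, which encodes viperin, was 35.4, 144 and 169 CPM and 22.8, 13.2 and 28.3 CPM, wholly lower without a call (adjusted p = 0.0536). VAS+H2O replicate 3 was the highest control for Ifit2 and Rsad2, and the summed list came to 1680.1, 1190.5 and 3592 CPM in VAS+H2O and 1176, 1123 and 1579.6 CPM in IMQ+XYF. Ifit2 was not called without VAS+H2O replicate 2 or 3, without an IMQ+H2O library or without an IMQ+XYF library, and without VAS+H2O replicate 1 there were 4 calls. DESeq2 called 6 genes lower. The list median was -0.07 without VAS+H2O replicate 3.

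In the epidermal class, the calls above the control came from genes of the stressed epidermis and of proliferation. The proliferation genes were placed in this class, but cycling cells of any type can express them. Which cells of these libraries held their RNA was not tested. Of 26 stress genes tested, 8 rose and none fell, with a median of 3.89 in IMQ+XYF (3.60 with genes absent from the control at their bound) against 1.63 in IMQ+H2O. Krt16 (chr11:100246091-100248902), a keratin of wounded and psoriatic epidermis, was 17.4, 31.3 and 7.15 CPM in VAS+H2O, 464, 132 and 742 CPM in IMQ+XYF (log2 fold change 4.59 ± 0.72, adjusted p = 0.0286) and 84.7, 129 and 107 CPM in IMQ+H2O. Krt6b, its usual partner, was 8.1, 8.42 and 2.87 CPM, 79.6, 46.1 and 504 CPM (log2 fold change 5.03 ± 0.96, adjusted p = 0.0418) and 27.7, 50.6 and 45.6 CPM. IMQ+XYF replicate 3 was the highest library for both, and replicate 2 was close to or inside the range of IMQ+H2O. Krt6a missed the threshold narrowly, with 59.4, 81.5 and 100.2 CPM and 398, 175 and 1039 CPM (adjusted p = 0.0526). Krt17, of the same group of stress keratins, was 141, 222 and 269 CPM and 515, 227 and 614 CPM (adjusted p = 0.179).

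The small proline-rich proteins, which are cross-linked into the cornified envelope, supplied 5 of the 8. Sprr1b rose from 3.93, 6.86 and 1.15 CPM to 86.7, 28.2 and 182 CPM (log2 fold change 4.66 ± 0.79, adjusted p = 0.0335), beside 22, 20.3 and 24.5 CPM in IMQ+H2O. Sprr2d rose from 0.509, 0.528 and 0.147 CPM to 14.8, 5.41 and 33.6 CPM (log2 fold change 5.57 ± 0.77, adjusted p = 0.0208), beside 3.1, 3.08 and 5.03 CPM. Sprr2h and Sprr2e had log2 fold changes of 5.26 and 7.35 (adjusted p = 0.0475 and 0.0465). Sprr2b, absent from the control, was at least 11.7-fold higher, and it too could pass the filter only through the groups with imiquimod. Lce3e, a late cornified envelope gene, had 2 control reads and a ratio of 105 (95% counting interval 28.7 to 870.5). The Sprr2 genes are close copies, so the division of reads among them is uncertain. Between IMQ+XYF and IMQ+H2O, 18 of the 26 genes had an unadjusted p under 0.05 with IMQ+XYF higher, and none was called. In that contrast the same held for 15 of 24 baseline keratin and adhesion genes and 12 of 31 cornified layer genes. Over all 22430 genes it held for 1424. The shift was thus not particular to the stress genes. The promoter window of Sprr2d (chr3:92338890-92339189, plus strand, RefSeq, GRCm38.p6) is shown because matches recurred over the called Sprr genes. The capitals mark TGANTCA, AP-1-like letters, at 193 bases before the annotated start, and TATAAA at 29 bases before it.
Sprr2d: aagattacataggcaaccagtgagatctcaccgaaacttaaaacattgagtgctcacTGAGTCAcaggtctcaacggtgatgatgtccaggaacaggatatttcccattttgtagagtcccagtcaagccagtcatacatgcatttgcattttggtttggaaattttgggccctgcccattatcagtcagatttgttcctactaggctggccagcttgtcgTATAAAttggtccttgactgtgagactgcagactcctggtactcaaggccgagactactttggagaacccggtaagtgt
TATAAA stood in the windows of all 6 called genes of the list that had one, against 15.7% of all genes, and TGANTCA in 5 of the 6, against 8.97%. These windows are partly copies of each other.

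The count of 8 stress genes depended on the libraries: without replicates 1, 2 and 3 of VAS+H2O in turn it was 1, 0 and 0, without those of IMQ+H2O 3, 2 and 3, and without those of IMQ+XYF 0, 15 and 1. DESeq2 called 16, a fit to the 6 libraries alone 0, and a fit with the score of the baseline keratins as a covariate, added after the data were seen, 8. With the cartilage score as covariate 3 were called, and with the muscle score, also added after the data were seen, 0. A replicate block gave 0 as well. The 24 baseline keratin and adhesion genes, of which none was called by edgeR, had a median of 0.30 (-0.77 in IMQ+H2O), and their summed level was 9702, 13759.6 and 8011 CPM in VAS+H2O, 28694, 7824 and 9470.4 CPM in IMQ+XYF and 4646, 6689 and 5548 CPM in IMQ+H2O. IMQ+XYF replicate 1 was the highest library by far, and without it the median turned to -0.30. With the cartilage or the muscle score as covariate the median was -0.23 or -0.31. Krt14, the partner of Krt5, was 864, 1469 and 947 CPM and 3367, 1064 and 1913 CPM, with overlap, and Krt10, of the suprabasal layers, was 2169, 2473 and 825 CPM and 6179, 1449.6 and 1234 CPM. Krt1, the partner of Krt10, was 154, 208 and 101 CPM in VAS+H2O and 1092, 242 and 358 CPM in IMQ+XYF, without overlap (adjusted p = 0.121). In this list 3 genes had an unadjusted p under 0.05 above the control and 1 below, and DESeq2 called 1 in each direction.

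None of 31 genes of the cornified layer was called by edgeR, with 5 at an unadjusted p under 0.05, all above the control, and 4 called higher by DESeq2. The median was 0.74 (-0.96 in IMQ+H2O). It turned to -0.38 without IMQ+XYF replicate 1, was 1.78 and 0.25 without replicates 2 and 3 of VAS+H2O and 1.21 without IMQ+XYF replicate 2, and was -0.06 with the cartilage score as covariate. Lor, the main protein of the cornified envelope, was 84.1, 65 and 13.5 CPM in VAS+H2O and 151, 25.6 and 31.5 CPM in IMQ+XYF, and Flg, which bundles keratin, 84.9, 38.6 and 5.44 CPM and 46.3, 19.9 and 16.6 CPM. Both overlapped. Tgm1, the transglutaminase that cross-links the envelope, was 17.5, 26.9 and 12.2 CPM and 98.3, 29.7 and 80.1 CPM, with no overlap (adjusted p = 0.0669).

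Genes of the growing hair fell in IMQ+XYF. Of 27 hair keratin and regulator genes tested, 16 fell and none rose, with a median of -5.64 (-5.49 with absent genes at their bound) and of -4.41 in IMQ+H2O. The summed level was 194, 319 and 639 CPM in VAS+H2O, 58.8, 42.2 and 27.9 CPM in IMQ+XYF and 35.6, 59.7 and 21.1 CPM in IMQ+H2O. Tchh, which encodes trichohyalin of the inner root sheath, was 40, 91 and 161 CPM in VAS+H2O and 9.31, 3.9 and 4.59 CPM in IMQ+XYF (log2 fold change -4.03 ± 0.72, adjusted p = 0.037). Krt27, a keratin of the inner root sheath, fell from 9.02, 17.3 and 33.9 CPM to 0.535, 0.224 and 0.422 CPM (log2 fold change -5.64 ± 0.68, adjusted p = 0.0163), and its level in IMQ+H2O was 0.999, 2.57 and 0.8 CPM. Krt31, a keratin of the hair cortex, had 4.39, 3.7 and 19.3 CPM in the control and 3 reads in all IMQ+XYF libraries together, a ratio of 738 (95% counting interval 252 to 3580.0) with the control higher. Krt33a (chr11:100011195-100016212), at 3.18, 5.53 and 15.6 CPM in VAS+H2O, had no count in any library with imiquimod and was at least 165-fold lower. The cortex keratins Krt81, Krt33b and Krt34 and the root sheath keratin Krt72 were likewise at 0 counts in IMQ+XYF, at least 139-, 115-, 68.2- and 68.5-fold lower. Krt35, of the lower hair cortex, was 4.32, 2.89 and 10.4 CPM in VAS+H2O and 0.0373, 0 and 0.146 CPM in IMQ+XYF (adjusted p = 0.0337). For all 16 genes that fell, VAS+H2O replicate 3 was the highest control. The regulators of hair growth in the list overlapped between the groups: Hoxc13 was 1.7, 2.11 and 4.9 CPM and 3.55, 0.976 and 0.796 CPM, and Lef1 17.7, 12.2 and 17.2 CPM and 10.8, 25.4 and 11.7 CPM.

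The keratin-associated proteins, which surround the keratin filaments of the hair shaft, followed. Of 57 listed, 27 had enough counts for a test, and 19 of these fell. The genes that were tested could pass the filter on low counts only through VAS+H2O, as several hair keratins did, so the counts describe these members and support nothing further. The summed level of the family was 27.9, 95 and 119 CPM in VAS+H2O, 1.72, 0.651 and 0.747 CPM in IMQ+XYF and 0.999, 1.04 and 0.644 CPM in IMQ+H2O. Krtap11-1 went from 4.03, 5.92 and 17.5 CPM to 0.0249, 0.102 and 0.0812 CPM (log2 fold change -7.09 ± 0.88, adjusted p = 0.0164). Krtap13-1 had 3 reads left in IMQ+XYF, with the control higher by a ratio of 493 (95% counting interval 168 to 2394). Hair keratins and these proteins form families of near copies, and reads may be divided among them. The number of hair keratins and regulators that fell varied by library: without replicates 1, 2 and 3 of VAS+H2O in turn it was 10, 0 and 5, without those of IMQ+H2O 10, 6 and 12, and without those of IMQ+XYF 1, 17 and 0. The same count for the keratin-associated proteins moved too: without replicates 1, 2 and 3 of VAS+H2O in turn it was 14, 0 and 1, without those of IMQ+H2O 10, 6 and 10, and without those of IMQ+XYF 0, 22 and 1. A fit to the 6 libraries alone called 1 and 3.

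The window of Krt31 (chr11:100050502-100050801, minus strand, RefSeq, GRCm38.p6) is given as that of a cortex keratin with some reads left in IMQ+XYF, among which it had the largest ratio. Its capitals mark TATAAA at 29 bases before the annotated start.
Krt31: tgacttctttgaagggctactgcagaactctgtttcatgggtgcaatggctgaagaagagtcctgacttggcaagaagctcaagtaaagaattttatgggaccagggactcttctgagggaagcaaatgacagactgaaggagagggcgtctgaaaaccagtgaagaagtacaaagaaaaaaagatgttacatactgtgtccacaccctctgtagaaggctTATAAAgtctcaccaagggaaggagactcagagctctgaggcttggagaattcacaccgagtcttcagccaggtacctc
TATAAA stood in 9 of the 11 windows of called hair keratins and related genes and in 15 of the 17 of called keratin-associated proteins, against 15.7% of all genes. Both are families of near copies, and the keratin-associated proteins could enter the test only through VAS+H2O. The counts therefore describe the letters of these windows and support nothing further.

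**Figure D4:**
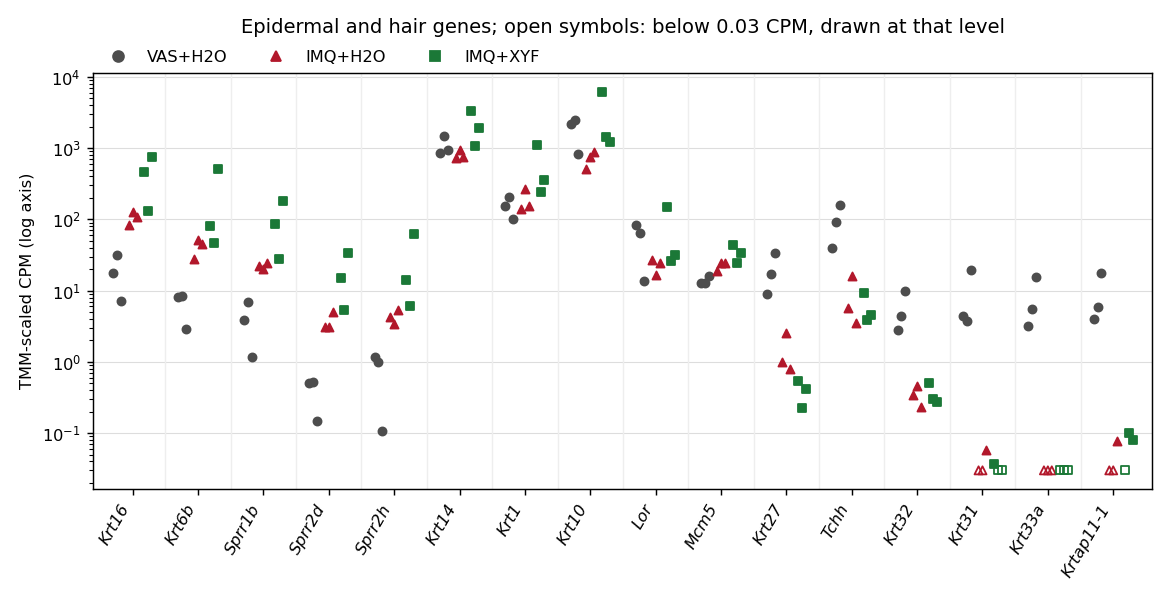
Level of 16 epidermal and hair genes in each library, as TMM-scaled CPM on a log axis, with grey circles for VAS+H2O, red triangles for IMQ+H2O and green squares for IMQ+XYF, and open symbols at 0.03 CPM for libraries below that level. For the stress genes at the left every IMQ+XYF library lies above VAS+H2O, but Krt6b in IMQ+XYF replicate 2 lies within the range of IMQ+H2O. Krt14, Krt10 and Lor overlap between the groups, and the hair genes at the right are high in VAS+H2O alone.

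Of 29 genes of DNA replication and mitosis tested, 4 rose and none fell, with a median of 0.81 (0.33 in IMQ+H2O), and 21 lay wholly above the control, beside 11.7% of all genes. The called genes were Mcm2, Mcm3 and Mcm5, subunits of the replicative helicase, and Rrm2, a subunit of ribonucleotide reductase. Mcm5 stood at 12.6, 12.8 and 16 CPM in VAS+H2O, 44.1, 24.7 and 33.4 CPM in IMQ+XYF (log2 fold change 1.31 ± 0.22, adjusted p = 0.0326) and 19, 24.6 and 24.3 CPM in IMQ+H2O. Rrm2 stood at 9.53, 12.4 and 11.7 CPM, 30.6, 19.5 and 23 CPM (log2 fold change 1.12 ± 0.18, adjusted p = 0.03) and 16.5, 18.2 and 18.2 CPM. Mki67, the common marker of cycling cells, was 34.4, 77.2 and 59.4 CPM and 101, 74.1 and 82 CPM, with overlap (adjusted p = 0.303). Leaving out 1 library changed the 4 calls: without replicates 1, 2 and 3 of VAS+H2O in turn it was 0, 0 and 0, without those of IMQ+H2O 2, 0 and 1, and without those of IMQ+XYF 0, 9 and 0. DESeq2 called 10 and a fit to the 6 libraries alone 0. The window of Mcm5 (chr8:75109259-75109558, plus strand, RefSeq, GRCm38.p6) is printed with TTTGGCGC, the letters of an E2F-like site, in capitals, read on the other strand at 149 bases before the annotated start.
Mcm5: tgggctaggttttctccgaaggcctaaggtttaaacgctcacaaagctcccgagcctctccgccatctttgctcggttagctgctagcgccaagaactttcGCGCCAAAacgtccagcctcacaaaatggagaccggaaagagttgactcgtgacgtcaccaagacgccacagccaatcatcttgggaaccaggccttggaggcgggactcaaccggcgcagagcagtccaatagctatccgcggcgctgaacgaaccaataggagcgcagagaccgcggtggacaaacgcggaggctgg
These letters stood in 2 of the 4 called genes of the list, Mcm3 and Mcm5, and in 0.585% of all genes.

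No gene of the sebaceous gland (16 tested) or of melanocytes (9 tested) was called by edgeR. In the sebaceous list 5 genes had an unadjusted p under 0.05, all below the control, and DESeq2 called 3. Scd1, the stearoyl-CoA desaturase, was 7466, 11223 and 11332 CPM in VAS+H2O, 3415, 5911 and 4778 CPM in IMQ+XYF and 4907, 5465 and 5864 CPM in IMQ+H2O, without overlap between IMQ+XYF and the control (adjusted p = 0.0561). Dct, an enzyme of pigment synthesis, had an unadjusted p under 0.05 at a log2 fold change of -1.04 ± 0.41, and DESeq2 called no melanocyte gene.

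Among the stromal genes 1 rose and 1 fell. Timp1 (chrX:20870166-20874735), an inhibitor of matrix metalloproteinases, rose from 14.5, 18.9 and 16.3 CPM to 140.2, 91.8 and 358 CPM (log2 fold change 3.57 ± 0.54, adjusted p = 0.0247), with 94.5, 221 and 217 CPM in IMQ+H2O. Esm1, made by activated endothelium, fell from 1.63, 2.33 and 2.48 CPM to 0.485, 0.366 and 0.731 CPM (log2 fold change -2.02 ± 0.34, adjusted p = 0.0326), with 1.45, 0.898 and 1.17 CPM in IMQ+H2O. Timp1 overlaps Syn1 and Esm1 overlaps Gzmk, each on the other strand, and whether the counting used the strand is not given in the sources used here. Timp1 was not called without any 1 of the VAS+H2O libraries or without IMQ+XYF replicate 1, and Esm1 kept its call when replicate 1 of IMQ+H2O or replicate 2 of IMQ+XYF was left out and lost it without each of the other libraries.

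No gene of the collagen, proteoglycan and fibroblast lists was called by edgeR. The lists do not hold every collagen, and the basement membrane collagens Col4a3 and Col4a5, which stood in none of them, fell (log2 fold change -1.51 and -1.03, adjusted p = 0.0221 and 0.0418). Collagens outside cartilage (22 tested) had a median of -0.35 (-0.73 in IMQ+H2O), and 8 had an unadjusted p under 0.05, all below the control, and DESeq2 called 4 lower. Col1a1, the main dermal collagen, was 1989, 3947 and 4982 CPM in VAS+H2O and 1585, 1038 and 3089.9 CPM in IMQ+XYF (log2 fold change -0.93 ± 0.47, adjusted p = 0.337). Col3a1, the other main fibrillar collagen of skin, was 2649, 6352 and 6889 CPM and 2056, 1547 and 4687 CPM (adjusted p = 0.389). Col8a1, a short-chain collagen, was 1816, 1064 and 1360.3 CPM, 323, 726 and 449 CPM and, in IMQ+H2O, 293, 144 and 242 CPM (adjusted p = 0.071). Proteoglycan and elastic fibre genes (27 tested) had a median of -0.27, with 5 at an unadjusted p under 0.05 and 2 called by DESeq2, all lower. Dcn, which encodes decorin, was 6137, 6282 and 6142 CPM and 4821, 5359 and 5288 CPM, wholly lower by a small margin (adjusted p = 0.295). Ltbp2, which binds elastic microfibrils, passed the adjusted p (0.04) at a log2 fold change of -0.80 ± 0.15, under the limit. Fibroblast genes (25 tested) had a median of -0.12, with 1 at an unadjusted p under 0.05 above the control and 4 below, and DESeq2 called 1 in each direction. Tnc, the tenascin of wounds, was 88.2, 119 and 115 CPM and 297, 159.7 and 822 CPM without overlap (adjusted p = 0.129).

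Cartilage genes (25 tested) had a median of -0.37 in IMQ+XYF and of -1.68 in IMQ+H2O, with no call by edgeR, 4 genes at an unadjusted p under 0.05, all lower, and 2 called lower by DESeq2. Their summed level was 9641, 3796 and 3944 CPM in VAS+H2O, 2778, 6981 and 3486 CPM in IMQ+XYF and 2652, 1592 and 2097 CPM in IMQ+H2O, so IMQ+XYF overlapped the control and lay above IMQ+H2O. Col2a1, the collagen of cartilage, was 147, 83.2 and 131 CPM and 29.3, 84 and 53.4 CPM (adjusted p = 0.152), and Acan, its main proteoglycan, 786, 496 and 529.7 CPM and 279, 848 and 473 CPM (adjusted p = 0.863). Wnt pathway genes (44 tested) had a median of -0.36, 14 with an unadjusted p under 0.05, all lower, no call by edgeR and 1 by DESeq2. Axin2, a target of Wnt signalling, was 80.5, 44.5 and 70.9 CPM and 35.5, 40.3 and 33.6 CPM (adjusted p = 0.0811). Endothelial genes (26 tested) had a median of 0.05 (0.68 in IMQ+H2O), which turned to -0.11 without VAS+H2O replicate 1 and -0.34 without IMQ+XYF replicate 3. Pecam1, which marks all of them, was 196, 234 and 309 CPM, 294, 157 and 414 CPM and, in IMQ+H2O, 447, 435 and 446 CPM. Adipocyte (17 tested) and Schwann cell (18 tested) genes had medians of -0.08 and -0.17, with no call by edgeR or DESeq2, and both medians changed sign when single libraries were left out (0.11 and 0.01 without replicates 2 and 3 of VAS+H2O and 0.03 without IMQ+XYF replicate 2 for adipocytes, 0.09 without VAS+H2O replicate 3 and 0.05 without IMQ+XYF replicate 2 for Schwann cells). Adipoq, which encodes adiponectin, had a log2 fold change of -0.01 ± 0.44. At an unadjusted p under 0.05 stood 1 adipocyte gene above the control and 2 below, and 0 Schwann cell genes. The 5 erythrocyte genes had a median of -1.29, with no call by edgeR, 1 at an unadjusted p under 0.05 and 1 called by DESeq2.

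No skeletal muscle gene was called, while nearly all had a fitted change below 0. Of 93 tested in the lists of the sarcomere, calcium handling, energy metabolism and myogenic regulators, 91 lay below 0, and the median was -1.20, against -0.02 over all genes and 0.21 in IMQ+H2O. The genes moved together across libraries and are not independent. Of them, 18 had an unadjusted p under 0.05, all lower, beside 4112 of all 22430 genes, of which 1964 were lower. DESeq2 called 2, 2, 1 and 0 lower in these lists, in the order given. The summed level was 5021, 8154 and 1820.3 CPM in VAS+H2O, 661, 3526 and 2019 CPM in IMQ+XYF and 7451, 3744 and 7380.2 CPM in IMQ+H2O. Single libraries moved the medians: that of the sarcomere list, -1.25, was -0.67 without VAS+H2O replicate 2, and leaving out replicate 1 or 2 of IMQ+XYF gave -0.81 or -2.04. Calcium handling, at -1.29, came to -0.75 without VAS+H2O replicate 2 and -0.81 without IMQ+XYF replicate 1, energy metabolism, at -1.16, to -0.72 without VAS+H2O replicate 2, and the myogenic regulators, at -0.88, to -1.72 without IMQ+XYF replicate 2. The summed levels overlapped, since VAS+H2O replicate 3 lay below IMQ+XYF replicates 2 and 3. Acta1, the actin of skeletal muscle, was 262, 406 and 94.2 CPM and 24.3, 122 and 118 CPM (log2 fold change -1.53 ± 0.65, adjusted p = 0.259). Ckm, the muscle creatine kinase, was 102, 131 and 37.4 CPM and 7.98, 37.8 and 39.2 CPM (adjusted p = 0.206). Myh4, the myosin of the fastest fibres, was 35.8, 10.5 and 12.9 CPM in VAS+H2O and 0.995, 2.38 and 10.4 CPM in IMQ+XYF, wholly lower by a small gap (adjusted p = 0.266). Actn3, a component of the Z disc of fast fibres, was 3.4, 3.2 and 3.64 CPM and 1.21, 0.61 and 1.56 CPM and came nearest to a call among the sarcomere genes (adjusted p = 0.0531).

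Smooth muscle and pericyte genes (19 tested) had a median of -0.25 (0.41 in IMQ+H2O), 2 with an unadjusted p under 0.05, both lower, and no call by edgeR or DESeq2. Acta2, the smooth muscle actin, was 84.9, 116 and 176 CPM, 150.0, 91.1 and 247 CPM and, in IMQ+H2O, 206, 315 and 371 CPM, and Myh11, the smooth muscle myosin, 58.7, 86.2 and 139.9 CPM, 68.3, 34.7 and 109.7 CPM and 120.1, 169 and 156 CPM. For both, IMQ+XYF replicate 2 was the lowest of its group. Tagln, an actin-binding protein of smooth muscle, had a log2 fold change of 0.04 ± 0.32. With the score of the sarcomere genes as a covariate, added after the data were seen, the calls over all genes fell from 270 to 33, and the calls among stress epidermis and neutrophil genes to 0 and 2. A cartilage score in place of the muscle score gave 102 genes called higher and 174 lower.

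**Figure D5:**
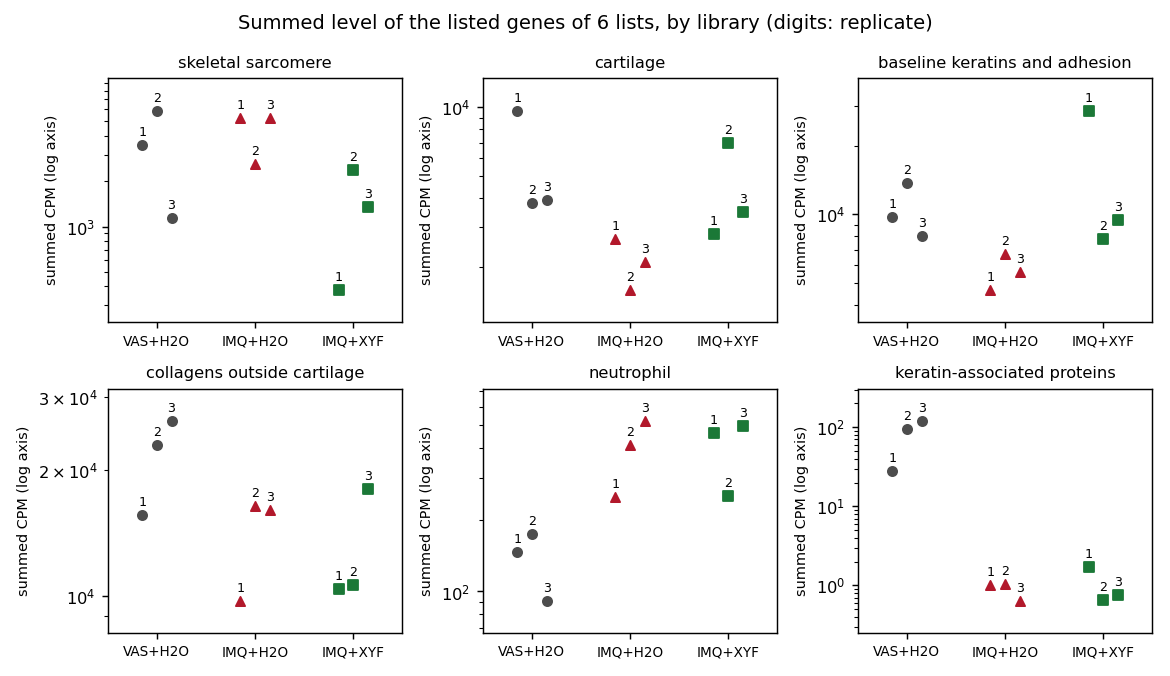
Summed TMM-scaled CPM of the listed genes of 6 lists in each library, on log axes, with the replicate number above each point. IMQ+XYF overlaps VAS+H2O in skeletal sarcomere, cartilage and baseline keratins, overlaps it by replicate 3 in collagens, lies above it in the neutrophil list, which also holds genes of other cells, and far below it in keratin-associated proteins.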

How the data were processed

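RNA sequencing of ear dermis was analysed in 9 libraries, 3 for each of VAS+H2O, IMQ+H2O and IMQ+XYF, grouped by their labels. The authors deposited raw read counts per Ensembl gene, after alignment with STAR (2.5 in the submitters' processing notes) to GRCm38 with the annotation of Ensembl release 90. The tool that counted the reads, its use of strand and its treatment of reads with several alignments are not given in the sources used here. The table held 52550 genes, of which 16554 had no count, and 27 symbols had been turned into dates and were not used as names. Libraries held 28756305 to 79836881 counts, and a floor of 3 counts corresponded to 0.0373 to 0.103 CPM. Bounds and intervals (95%, exact) cover counting error only.

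Counts were filtered by group, scaled by TMM and fitted over all 9 libraries with the quasi-likelihood test of edgeR 4.0.16 in R 4.3.3, with p-values adjusted after Benjamini and Hochberg over 22430 genes. Calls needed an adjusted p of at most 0.05 and an absolute log2 fold change of at least 1. A gene with no count in VAS+H2O could pass the filter only through the groups with imiquimod, so it could not come out lower. On counts simulated for IMQ+XYF against VAS+H2O over 21950 genes, the fit called 105 of 108 genes changed by 2 and 91 of 92 changed by 3 on the log2 scale, with 5 false calls. These counts were drawn gene by gene from the trend of the dispersion, and only genes with a mean above 1 CPM were changed. They held no spread particular to a gene and no tissue difference shared by genes. The simulation therefore does not give the sensitivity in the real libraries. Of 826 symbols in 35 lists, 817 were matched by name, 7 by another name, and 2 (Krt85 and Ahsp) were not used, and 766 of 822 distinct genes were tested. The genes named were the 12 largest rises and falls among called genes with at least 100 scaled counts, up to 6 called members of each list with the member of highest mean CPM, and defining genes of each class. Some genes that this rule names are not reported here. Other genes that the text singles out were chosen after their values were seen. The members and lists were chosen with earlier results of these data known. DESeq2 1.42.0, other scalings and filters, covariates, a replicate block and fits without each library served as alternatives. Replicate numbers were not treated as pairs. Correlations of same-numbered deviations ran from -0.183 to 0.125, but differently numbered libraries were not set beside them, so these values cannot exclude a pairing. Promoter windows came from RefSeq for GRCm38.p6, and 68 of 87 called list genes had one. Figures were drawn with matplotlib 3.10.9.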

Additional observations from a re-analysis of the deposited data

How the results depend on the processing

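The number of genes called between IMQ+XYF and VAS+H2O depended strongly on the fit. DESeq2 gave 701 calls (388 higher and 313 lower), of which 256 were also called by edgeR. A fit to the 6 libraries alone gave 33 (24 and 9). A skeletal muscle score as covariate, chosen after seeing the data, gave 33 (15 and 18), and a cartilage score gave 102 higher and 174 lower. An adjusted p of 0.01 left 1 call (1 higher and 0 lower), and no limit on the fold gave 453, of which 286 were higher. The replicate block gave 54 calls (36 and 18), 50 of them shared with the fit without it, and whether the replicate numbers pair the samples is not known. Leaving out 1 library in turn gave between 12 and 592 calls, between 11 and 412 higher and between 1 and 180 lower, the lowest without VAS+H2O replicate 2 and the highest without IMQ+XYF replicate 2. With DESeq2's size factors, without a filter on low counts, with robust dispersions and with an epidermal score chosen after seeing the data, the totals stayed within 1.5 times of 270.

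The causes of these differences were not tested, and the fits that drop libraries also rest on fewer of them. The 8 genes called whichever of the 9 libraries was left out were Fpr1, Fpr2, Lcn2, Slpi, Msr1, Angptl4, Cdhr1 and Sike1. With 3 libraries a group, a gene that was not called cannot be taken as unchanged.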

Other observations

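Most of the called genes, 109 of those higher and 74 of those lower in IMQ+XYF, stood in no list. The genes named here were chosen after their values were seen, except where they were among the 12 largest rises or falls. Epgn, which encodes epigen, a ligand of the EGF receptor, was 0.388, 0.5 and 0.322 CPM in VAS+H2O, 54, 11.3 and 57.4 CPM in IMQ+XYF and 3.96, 7.81 and 11.4 CPM in IMQ+H2O (log2 fold change 6.69 ± 0.75, adjusted p = 0.0137). Another ligand of this family, Nrg1, rose by 2.55 on the log2 scale (adjusted p = 0.0456). Has3, which makes hyaluronan, and the epidermal proteases Klk6 and Klk14 rose by 2.34, 3.39 and 3.07. The scavenger receptor Marco, the lectin Siglece and the integrin chain Itgb2 had log2 fold changes of 2.85, 2.80 and 1.18. Slc7a11, the cystine transporter, and Angptl4, an inhibitor of lipoprotein lipase, rose by 3.41 and 2.48 (adjusted p = 0.0239 and 0.0107).

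Serine protease inhibitors of the Serpina3 cluster moved in both directions, with Serpina3m at 2.22 and Serpina3n at 2.06, and Serpina3b at -2.42 and Serpina3j at -3.83 on the log2 scale. These genes are close copies, and reads may be divided among them. Among the genes that fell were Ighm, the heavy chain of IgM (-1.63), Retnla, a product of alternatively activated macrophages (-2.39), and Ptch1, the receptor and target of hedgehog signalling (-1.05). The 2 genes called between IMQ+XYF and IMQ+H2O were called against VAS+H2O too. Sike1, a suppressor of the kinases IKKε and TBK1, was 43.5, 43.2 and 47.2 CPM in VAS+H2O, 47.5, 43.1 and 46.9 CPM in IMQ+H2O and 11.6, 17.7 and 12.3 CPM in IMQ+XYF (log2 fold change -1.69 ± 0.16, adjusted p = 0.0107 against VAS+H2O). Prr33, a proline-rich protein, was 6.84, 4.34 and 4.57 CPM, 3.69, 4.15 and 4.31 CPM and 25.6, 59.1 and 35.1 CPM in the same order (log2 fold change 2.93 ± 0.32, adjusted p = 0.0137). In both genes VAS+H2O and IMQ+H2O lay in 1 range and the IMQ+XYF libraries outside it. Prr33 lies in the overlapping Tnnt3-Lsp1 locus, and whether the counting used the strand is not given in the sources used here. Its counts may therefore hold reads of other genes.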
